A study of Mus musculus with 50 samples.

Results

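The 5 genes of the muscle nicotinic acetylcholine receptor, Chrna1, Chrnb1, Chrnd, Chrne and Chrng, were followed through adult life and old age in gastrocnemius, a mixed calf muscle of the mouse. They were chosen by symbol from the 23880 genes of the expression tables, and all 5 were found. The samples came from 50 untreated males of the inbred C57BL/6JRj strain, which carried no added allele. Groups of 8 mice were killed at 8, 18, 22 and 24 months and groups of 9 mice at 26 and 28 months, and each mouse gave 1 RNA-seq library. All mice ate the same purified maintenance diet at the endpoint, but those of 8 and 18 months had been moved to it shortly before, whereas those of 22 to 28 months had eaten it from middle age on. Age and diet history therefore cannot be told apart between these blocks of ages. The comparison of 28 with 22 months lies within one regime, although the older mice there had eaten the diet longer. The libraries held 13607229 to 21267375 counts, and the median was 18409468 at 8 months and 15922011 at 28 months. The tissue label was borne out by fibre genes such as Tnnt3, Acta1 and Ckm: the 6 fibre markers together made up a median of 126999 TPM (a level scaled by transcript length and library size) at 8 months and 131928 TPM at 28 months.

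The muscle receptor is a ring of subunits around a cation channel that opens when acetylcholine arrives from the motor nerve. Adult fibres build it from alpha 1, beta 1, delta and epsilon subunits and hold it at the synapse, where only the nuclei beneath the nerve ending transcribe the genes strongly. Foetal and denervated fibres use the gamma subunit in place of epsilon and make receptors along the whole fibre, under the control of myogenic E-box factors that electrical activity holds down.

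The genes lie on 3 chromosomes of GRCm38 (gene positions from GENCODE vM21). Chrnd occupies chr1:87190607-87200070 and Chrng chr1:87204657-87212694, both on the plus strand with 4586 bases between them. Chrna1 (chr2:73563215-73580338), Chrnb1 (chr11:69784036-69795943) and Chrne (chr11:70614883-70619216) are on the minus strand. The 250 bases before the RefSeq start (build GRCm38.p6) are shown for the 4 genes with a sequence in the promoter table, because the E-box (CANNTG, the same on both strands) and the N-box (CCGGAA, or TTCCGG on the other strand) are the letters by which muscle-wide and synaptic transcription of these genes are usually described. Each run reads 5′ to 3′ on the strand of the gene and ends at the base before the start, and capitals mark every E-box and N-box found. The window of Chrna1 is chr2:73580339-73580588 (minus strand), that of Chrnb1 chr11:69795938-69796187 (minus strand), that of Chrne chr11:70619195-70619444 (minus strand) and that of Chrng chr1:87205561-87205810 (plus strand).
Chrna1: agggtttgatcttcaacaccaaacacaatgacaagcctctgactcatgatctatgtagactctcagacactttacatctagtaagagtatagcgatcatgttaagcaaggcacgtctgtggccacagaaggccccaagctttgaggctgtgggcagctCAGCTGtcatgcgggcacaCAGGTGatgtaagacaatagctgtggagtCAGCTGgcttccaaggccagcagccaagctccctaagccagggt
Chrnb1: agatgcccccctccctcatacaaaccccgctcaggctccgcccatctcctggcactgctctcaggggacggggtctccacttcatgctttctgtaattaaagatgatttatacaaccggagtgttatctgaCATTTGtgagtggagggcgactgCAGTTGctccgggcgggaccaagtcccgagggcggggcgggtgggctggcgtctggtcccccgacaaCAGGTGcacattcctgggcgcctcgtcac
Chrne: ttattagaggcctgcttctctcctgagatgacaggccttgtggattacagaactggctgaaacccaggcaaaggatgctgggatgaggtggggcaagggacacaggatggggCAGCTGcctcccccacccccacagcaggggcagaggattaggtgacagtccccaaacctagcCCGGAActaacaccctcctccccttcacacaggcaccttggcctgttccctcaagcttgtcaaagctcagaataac
Chrng: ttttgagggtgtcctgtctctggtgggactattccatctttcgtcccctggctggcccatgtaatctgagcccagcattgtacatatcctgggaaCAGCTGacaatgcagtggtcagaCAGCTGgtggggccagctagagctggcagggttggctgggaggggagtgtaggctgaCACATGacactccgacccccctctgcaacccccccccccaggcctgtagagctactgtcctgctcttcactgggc

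Chrna1, Chrnb1 and Chrng each held 3 E-boxes in this window and Chrne held 1. Of all 32851 promoter windows of this length, 66.2% held at least 1 E-box and 12.2% at least 3. The form CAGCTG occurred 2 times before Chrna1, at -92 and -44, and 2 times before Chrng, at -155 and -132, counted from the start to the first base of the match. It occurred 1 time before Chrne and was not found before Chrnb1, and 13.0% of all windows held it at least 1 time and 1.26% at least 2 times. The N-box was found before Chrne alone among these 4 windows, at -76, and 12.0% of all windows held one. These matches describe letters only, and the starts given by RefSeq for Chrnb1, Chrne and Chrng lie inside the GENCODE genes, so that the window of Chrng falls wholly within its gene and those of Chrnb1 and Chrne overlap theirs in part.

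The alpha 1 and beta 1 subunits, which adult and foetal receptors share, were higher at 28 months than at 8 and than at 22 months. The shared delta subunit and the foetal gamma subunit passed in the fits over all ages at 28 against 8 months alone, a comparison across diet histories, and not in the test for a difference at any age (FDR 0.0511 and 0.0167). The adult epsilon subunit passed in neither direction. Between 8 and 28 months the mean level of Chrna1 went from 6.90 ± 1.07 TPM (SD, n = 8) to 17.3 ± 4.15 TPM (n = 9), that of Chrnb1 from 32.7 ± 3.35 to 72.1 ± 14.0 TPM and that of Chrnd from 1.62 ± 0.41 to 2.65 ± 0.79 TPM. Chrne was at 16.1 ± 3.19 TPM at 8 months and 13.7 ± 3.76 TPM at 28 months. In one fit of the counts over the 6 ages (edgeR's quasi-likelihood test, Benjamini-Hochberg FDR of 0.01), 3 of the 4 subunits past the filter on low counts were higher at 28 than at 8 months and 0 were lower, where 39.6% of the 12586 genes tested were called, 21.0% higher and 18.7% lower. At 26 months 2 of 4 were higher than at 8 months (18.4% of all genes called, 9.84% higher) and at 24 months 1 of 4 (0.612% called, 0.318% higher). All comparisons with 8 months share the same 8 mice. As this is bulk tissue, more transcript per nucleus, more nuclei that transcribe a gene and a smaller mass of the rest of the fibre cannot be told apart.

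**Figure D1:**
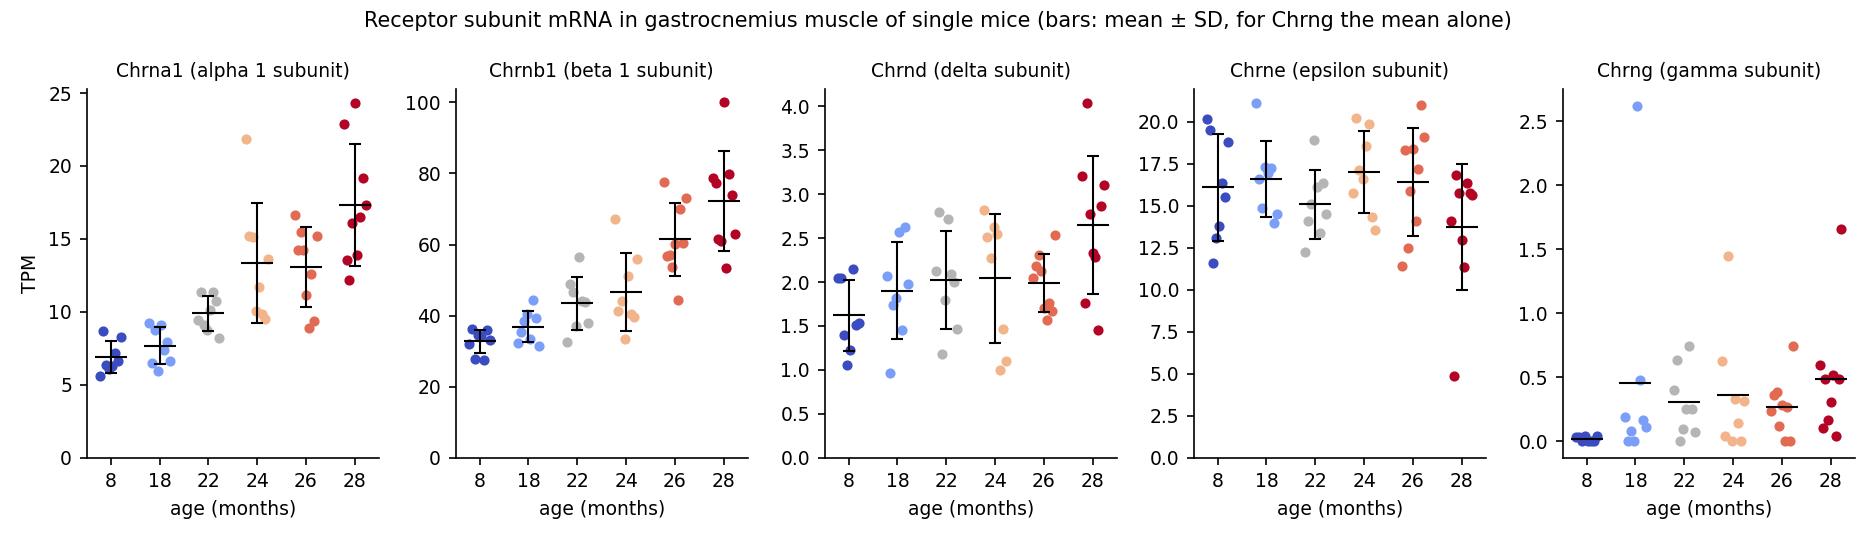
Level of each receptor subunit in TPM (y axis, a separate linear scale for each gene) against age in months (x axis). Points are single mice, 8 per age up to 24 months and 9 at 26 and 28 months, and black bars give the mean and SD, or for Chrng the mean alone. All 28-month mice lie above the highest 8-month mouse for Chrna1, Chrnb1 and Chrng. For Chrng this holds in TPM alone, since 28 months replicates 2 and 7 had 1 count each, as had the highest 8-month mice. In TMM-scaled CPM 28 months replicate 2 lies below 8 months replicates 1 and 4. Chrne overlaps at all ages and has 1 low mouse at 4.88 TPM.

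Chrna1 encodes the subunit that binds acetylcholine. At 8 months its level ran from 5.64 to 8.68 TPM with a median of 6.52 TPM, and at 18 months from 5.95 to 9.22 TPM with a median of 7.66 TPM. At 22 months it ran from 8.22 to 11.4 TPM with a median of 9.80 TPM, and 7 of 8 mice lay above the highest 8-month mouse. The groups then separated fully. At 24 months the range was 9.50 to 21.8 TPM (median 12.6), at 26 months 8.92 to 16.6 TPM (median 14.2) and at 28 months 12.2 to 24.3 TPM (median 16.5), so that all 8, all 9 and all 9 mice stood above every 8-month mouse. The fitted change against 8 months was 0.94 on the log2 scale at 24 months (SE 0.15, FDR 0.000184), 0.93 at 26 months (SE 0.15, FDR 1.27e-05) and 1.27 at 28 months (SE 0.15, FDR 1.74e-08), the last a fold of 2.41 with a 95% interval of 1.96 to 2.96. At 22 months it was 0.50 (SE 0.15) and missed the threshold at an FDR of 0.155, but passed in a fit of the 2 ages alone (FDR 0.00746), and at 18 months it was 0.15 (FDR 0.9995). At 28 months the spread between mice, with a coefficient of variation of 24.0%, was wider than the 15.5% at 8 months, and at 24 months it reached 30.9%.

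Chrnb1, the beta 1 subunit that links the receptor to its scaffold, was the most abundant of the 5 transcripts in all 50 mice. Its level ran from 27.6 to 36.3 TPM at 8 months (median 33.8), from 31.5 to 44.3 TPM at 18 months (median 37.0) and from 32.7 to 56.5 TPM at 22 months (median 43.9). At 24 months it ran from 33.5 to 67.3 TPM (median 42.7), at 26 months from 44.5 to 77.7 TPM (median 60.1) and at 28 months from 53.5 to 100.1 TPM (median 74.1). The number of mice above the highest 8-month mouse was 4 of 8 at 18 months, 7 of 8 at 22 months, 7 of 8 at 24 months, 9 of 9 at 26 months and 9 of 9 at 28 months. Against 8 months the fitted log2 change was 0.47 at 24 months (SE 0.13, FDR 0.0271), 0.87 at 26 months (SE 0.12, FDR 2.88e-06) and 1.04 at 28 months (SE 0.12, FDR 2.21e-08), a fold of 2.06 with a 95% interval of 1.73 to 2.45. Chrnb1 thus passed the threshold at 26 and 28 months and Chrna1 at 24, 26 and 28 months, and the difference between the genes in this respect was not tested.

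Chrnd, the delta subunit, was a low transcript with 24 to 91 counts per mouse. Its level ran from 1.06 to 2.14 TPM at 8 months (median 1.52) and from 1.46 to 4.04 TPM at 28 months (median 2.78), with 7 of 9 old mice above the highest 8-month mouse. The ages between were broad and overlapping, with medians of 1.898 TPM at 18 months, 2.04 TPM at 22 months, 2.39 TPM at 24 months and 2.05 TPM at 26 months. The fitted log2 change at 28 months was 0.62 (SE 0.18, FDR 0.00288), a fold of 1.54 with a 95% interval of 1.20 to 1.96. This call was the least secure of the 3: in a fit of the 2 ages alone the FDR was 0.0114, and without 28 months replicate 3, the mouse with 4.04 TPM, it was 0.0101. At 18 to 26 months the log2 change lay between 0.17 and 0.31 and passed the threshold at no age.

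**Figure D2:**
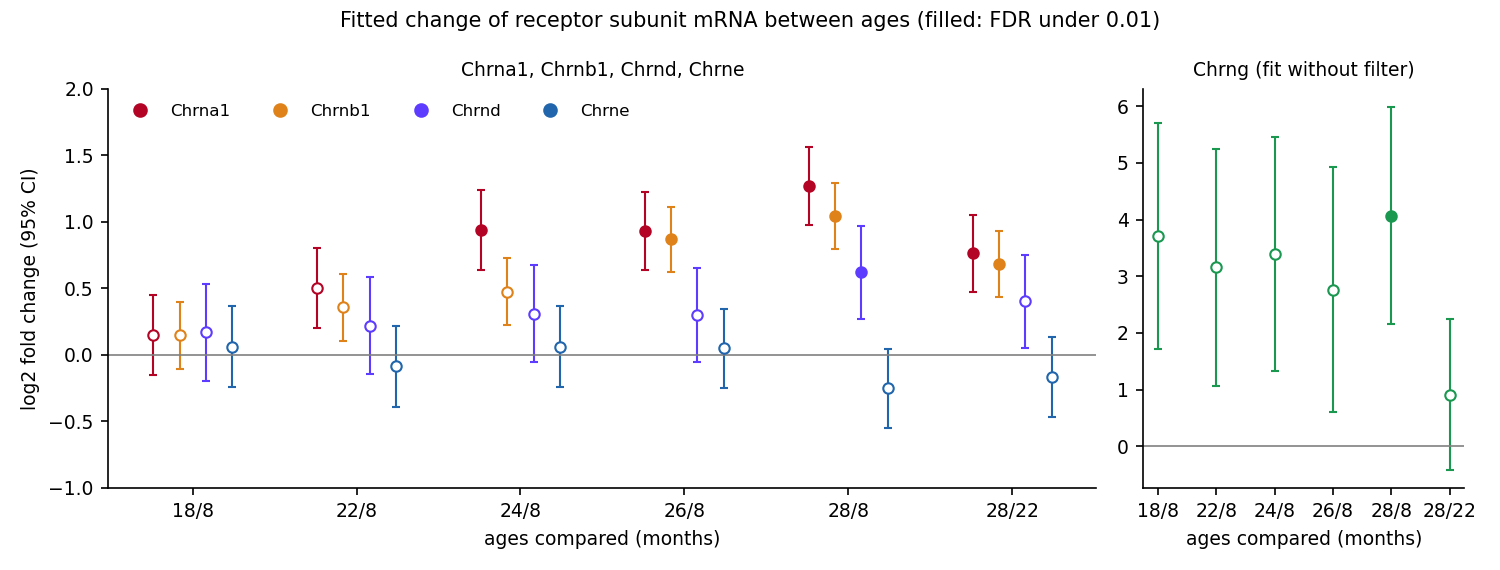
Fitted log2 fold change (y axis) with its 95% interval for each comparison of ages in months (x axis), on separate scales for the 4 subunits past the filter and for Chrng, which was fitted without it. Filled circles passed an FDR of 0.01: Chrna1 from 24 months on, Chrnb1 from 26 months on, Chrnd and Chrng at 28 months, and Chrna1 and Chrnb1 between 22 and 28 months.

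Within the mice of one diet regime, 2 of 4 subunits were higher at 28 than at 22 months. In that comparison 27.7% of all genes were called and 16.2% were higher. Chrna1 rose by 0.77 on the log2 scale (SE 0.14, FDR 8.01e-05) and Chrnb1 by 0.68 (SE 0.12, FDR 4.79e-05). For Chrnd the change was 0.40 (SE 0.17, FDR 0.0568) and for Chrne -0.17 (SE 0.15, FDR 0.372). Chrng, in the fit without the filter, had a log2 change of 0.91 (SE 0.66, FDR 0.358), or 0.44 without 28 months replicate 9, where 13.5% of all genes were called, so that its call at 28 months rests on the comparison with 8 months, across which the diet history differed too. No step between neighbouring ages passed for any of the 4 (0 of 4 subunits from 18 to 22, 22 to 24, 24 to 26 and 26 to 28 months, where 0.00795%, 0%, 0% and 0% of all genes were called), and the FDR closest to the threshold was 0.0900, for Chrnb1 from 24 to 26 months with a log2 change of 0.39. The unadjusted p of edgeR was below 0.05 for 1, 1, 1 and 2 of the 4 subunits in these steps, while DESeq2, the likelihood ratio test and limma also called 0. Against 8 months, 0 of 4 passed at 18 months (0.0715% of all genes called) and 0 of 4 at 22 months (0.0397% called), and DESeq2 called 0 at both ages, with 0 and 2 subunits at an unadjusted p below 0.05. In a test for a difference at any age, in which 35.4% of all genes passed, the FDR was 6.39e-09 for Chrna1, 7.07e-09 for Chrnb1, 0.0511 for Chrnd and 0.346 for Chrne.

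Chrne encodes the epsilon subunit, which marks the adult receptor and is transcribed almost only beneath the nerve ending. Its level ran from 11.6 to 20.2 TPM at 8 months (median 15.9), and its medians at the following ages were 16.8, 14.8, 16.9, 17.2 and 15.6 TPM. At 28 months 8 of 9 mice lay between 11.4 and 16.8 TPM and replicate 2 lay at 4.88 TPM, with 60 counts. All groups overlapped. The fitted log2 change at 28 months was -0.25 (SE 0.15, FDR 0.149) with a 95% interval of -0.55 to 0.05, and without replicate 2 it was -0.13 (FDR 0.368). At 18 to 26 months it lay between -0.09 and 0.06. That library also had the lowest summed fibre markers of its age (98273 TPM, median 131928 TPM) and the highest summed macrophage markers (609 TPM, median 284 TPM), and their part in the low Chrne value was not tested.

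Chrng encodes the gamma subunit of the foetal receptor. It was almost silent at 8 months, where 4 of 8 mice had a count of 0 and the other 4 had a count of 1 each, giving 4 counts among 145998255. At 28 months every mouse had at least 1 count and the 9 mice together had 80 among 144184332, a rate of 0.555 CPM (counts scaled to the library total) against 0.0274 CPM. The ratio of these rates was 20.3 with a 95% interval of 7.61 to 76.1 from counting error alone, and 14.8 without the 28-month mouse with the most counts. The level ran from 0 to 0.037 TPM at 8 months and from 0.041 to 1.66 TPM at 28 months (median 0.484). In TPM all 9 old mice thus lay above all 8 young ones. Of these, 28 months replicates 2 and 7 had 1 count each, as had the highest 8-month mice. In TMM-scaled CPM 28 months replicate 2 (0.0540) lay below 8 months replicates 1 (0.0593) and 4 (0.0607). Since Chrng did not pass the filter on low counts (1 CPM in at least 8 mice), it was tested in a fit without that filter, where its log2 change at 28 months was 4.07 (SE 0.95, FDR 0.000695) and 21.6% of 22116 genes were called, 11.8% higher. A fitted change of so low a gene depends on the prior count, and on log2(TPM + 1) its limma FDR was 0.0354.

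The gamma subunit was not confined to the oldest mice. The summed counts were 57 at 18 months, 43 at 22 months, 45 at 24 months and 32 at 26 months. In TPM the number of mice above every 8-month mouse was 6, 7, 6 and 7. Some of these had 1 count, as had the highest 8-month mice. In TMM-scaled CPM 22 months replicate 4 (0.0531) and 24 months replicate 2 (0.0576) lay below 8 months replicate 4 (0.0607). In the fit none of these 4 ages passed, with FDR values of 0.278, 0.316, 0.0816 and 0.0645 for log2 changes of 3.71, 3.16, 3.40 and 2.76, where 0.0226%, 0.0226%, 0.240% and 4.70% of all genes were called higher. In fits of the 2 ages alone Chrng passed at 26 months (FDR 0.00812). A two-sided exact permutation test of the mean TPM against 8 months, added after the data had been seen, gave p-values adjusted over the 5 ages of 0.00952, 0.00544, 0.0132, 0.00617 and 0.000411 at 18, 22, 24, 26 and 28 months, for differences of 0.438, 0.288, 0.344, 0.249 and 0.466 TPM. Without the highest mouse of each older age these p-values were 0.0190, 0.0109, 0.0264, 0.0117 and 0.000777, for differences of 0.129, 0.226, 0.190, 0.189 and 0.319 TPM. Single animals held much of the signal. One mouse of 18 months (replicate 5) held 36 of the 57 counts of its age and 2.62 TPM, the highest level of all 50 mice, and the fitted change at 18 months was 2.40 without it (FDR 0.971). The highest mice at 24 and 28 months had 22 and 28 counts, and 11 of 50 mice had 0 counts, 7 of them older than 8 months. The test over all ages gave an FDR of 0.0167 for Chrng with all mice and 0.00458 without 18 months replicate 5, where 19.6% of all genes passed.

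In absolute terms gamma remained a small part of the pool. Its share of the summed gamma and epsilon level in TPM had a median of 0.0816% at 8 months and 2.79% at 28 months, and the highest share was 13.4%, in 18 months replicate 5. At 28 months it ran from 0.252% to 9.59%, and 8 of 9 mice lay above the highest 8-month mouse at 0.284%. No mouse had as much gamma as epsilon transcript.

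The order of the 5 levels in TPM was the same in all 8 mice of 8 months, Chrnb1, Chrne, Chrna1, Chrnd and then Chrng, and the ranges of neighbours in that order did not overlap. This order held in 37 of 50 mice. In 12 mice Chrna1 stood above Chrne: 2 at 24 months, 2 at 26 months and 8 of 9 at 28 months. In 1 mouse, 18 months replicate 5, Chrng stood above Chrnd. At 28 months the levels of Chrna1 (12.2 to 24.3 TPM) and Chrne (4.88 to 16.8 TPM) overlapped, and their means lay closer together than their SDs. The ranges of Chrnd (1.46 to 4.04 TPM) and Chrng (0.041 to 1.66 TPM) touched through 1 mouse at 1.66 TPM of Chrng, but Chrnd stood above Chrng in each of the 9 mice.

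**Figure D3:**
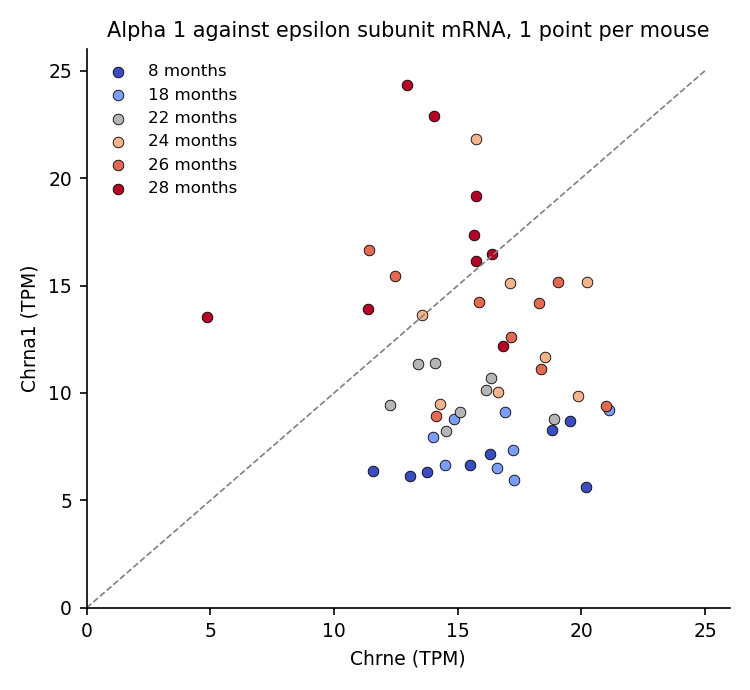
Level of Chrna1 (y axis, TPM) against that of Chrne (x axis, TPM) in the same mouse, 1 point for each of 50 mice coloured by age, with a dashed line of equal levels. All 8-, 18- and 22-month mice lie below the line and 8 of the 9 mice of 28 months lie above it, with 28 months replicate 2 at the far left.

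The ratio of alpha 1 to epsilon in TPM had a median of 0.442 at 8 months, 0.448 at 18 months, 0.643 at 22 months, 0.708 at 24 months, 0.777 at 26 months and 1.22 at 28 months. It ran from 0.279 to 0.552 at 8 months and from 0.725 to 2.78 at 28 months, and these ranges did not overlap. To compare the changes of subunits with each other, the log2 ratio in each mouse was compared between 28 and 8 months for the 6 pairs of the 4 abundant subunits (two-sided exact permutation tests adjusted over the 6 pairs, added after the data had been seen). The log2 ratio of Chrna1 to Chrne was higher by 1.59 at 28 months and that of Chrnb1 to Chrne by 1.40, both with an adjusted p of 0.000247 (unadjusted p 8.23e-05, the smallest that these exact permutations can give) and with 9 of 9 old mice above all young ones. The log2 ratio of Chrne to Chrnd was lower, at -0.97 (adjusted p 0.00132), with 8 of 9 old mice below all young ones. The ratio of Chrna1 to Chrnd was higher by 0.62 (adjusted p 0.0275, 7 of 9 mice above). For Chrnb1 against Chrna1 the difference was -0.18 (adjusted p 0.142) and for Chrnb1 against Chrnd 0.44 (adjusted p 0.137). Without 28 months replicate 2 the same 4 ratios passed 0.05, with an adjusted p of 0.0469 for Chrna1 to Chrnd. These tests cross diet histories, and the ratios were not tested between 28 and 22 months.

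Mice of one age also differed from each other, and the subunits were compared across these differences. Each log2(TPM + 1) value was taken relative to the mean of its age, and the 10 pairs of subunits were correlated over the 50 mice (100000 permutations within ages, p adjusted over the 10 pairs). Chrna1 varied with Chrnb1 (r = 0.545, adjusted p 0.00290, Spearman's rho 0.446), with Chrng (r = 0.437, adjusted p 0.0132, rho 0.482) and with Chrnd (r = 0.401, adjusted p 0.0271, rho 0.440). Chrnd varied with Chrng (r = 0.448, adjusted p 0.0156, rho 0.452). The unadjusted p-values were 0.000290, 0.00265, 0.0108 and 0.00468 in that order. The 3 pairs that involve Chrnd or Chrng here had a positive r in all 6 ages and Chrna1 with Chrnb1 in 5 of 6. Without the 2 mice farthest from the median of the first gene r was 0.393, 0.466, 0.392 and 0.415 for these 4 pairs, all past 0.05. Such values were not particular to pairs of subunits. After the same centring r was 0.545 for Chrna1 with Inpp5k, 0.580 with Scn3b and 0.653 for Chrnb1 with Gstm2, genes picked for a high r. The share of all genes that vary this closely with a subunit was not counted.

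No pair with Chrne passed: r was 0.055 with Chrna1, -0.055 with Chrnb1, 0.253 with Chrnd (adjusted p 0.205) and 0.087 with Chrng. Without the 2 farthest mice Chrnd and Chrne had an r of 0.390 with an adjusted p of 0.0237. The same step on log2(TPM + 0.1), which left out another pair of mice, gave an r of 0.328 with an adjusted p of 0.0803, and on log2 of TMM-scaled CPM, which left out the first pair, 0.369 with 0.0461. Chrnb1 did not pass with Chrnd (r = -0.00062) or with Chrng (r = 0.096). The values of one mouse share a library, and within single ages r rests on 8 or 9 mice.

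**Figure D4:**
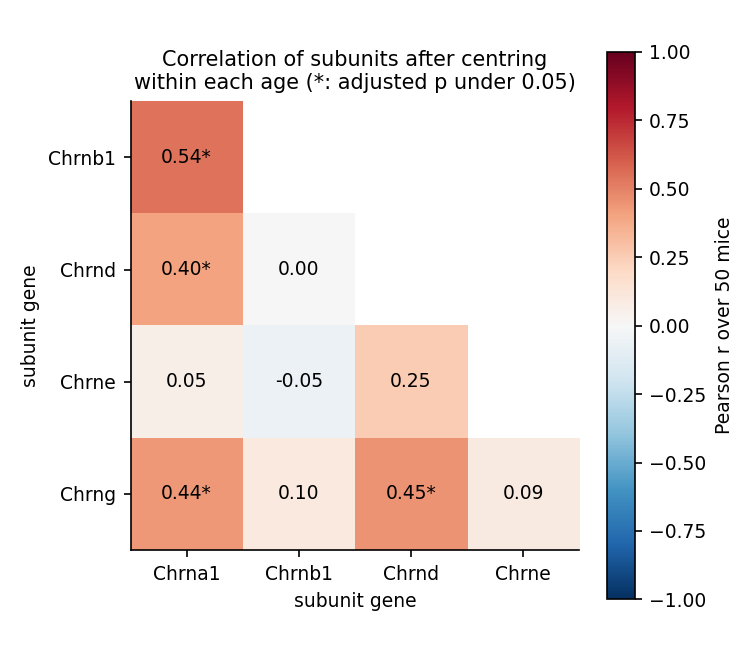
Pearson r between pairs of subunits over 50 mice after the mean of each age was taken away from log2(TPM + 1), with red for positive and blue for negative values and a star where the adjusted p was under 0.05. Chrna1 correlated with Chrnb1, Chrnd and Chrng (0.545, 0.401 and 0.437), Chrnd with Chrng (0.448), and no pair with Chrne passed.

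The genes with the profile most like that of each subunit were found by Pearson's r of log2(TPM + 1) over the 50 mice, a measure that includes the change with age. For Chrna1 they were Inpp5k (r = 0.855), which encodes an inositol phosphatase, Kcnc4 (0.849), a potassium channel gene, and Scn3b (0.846), which encodes a sodium channel beta subunit. For Chrnb1 they were Gstm2 (0.896), a glutathione transferase gene, Sln (0.895), which encodes sarcolipin, an inhibitor of the calcium pump of the sarcoplasmic reticulum, and Ctxn3 (0.881). After centring within ages these 6 values lay between 0.498 and 0.653. Chrnd had lower values, with Pld3 (0.643), Mad1l1 (0.630) and Ube3b (0.616).

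The gene most like Chrne was Ache (r = 0.747), which encodes the acetylcholinesterase of the synaptic cleft, followed by Phkg1 (0.729) and Pfkm (0.729), genes of glycogen breakdown and glycolysis. These values leaned on few animals: without the 2 mice farthest from the median, r was 0.539, 0.492 and 0.384. The genes most like Chrng were Aif1l (0.624), Apoe (0.574), the gene of apolipoprotein E, and Cd300ld3 (0.539), a receptor gene of myeloid cells. No p is given for these values, since the genes were picked from the whole table for their r.

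The neuronal nicotinic subunits form other receptors and were mostly near the lower limit in this muscle. Of 11 genes 9 did not pass the filter on low counts and had mean levels of at most 0.185 TPM at 8 months and 0.101 TPM at 28 months, and Chrna6 was listed at 0. Chrna2 had a mean of 0.920 TPM at 8 months (range 0.588 to 1.55) and 0.794 TPM at 28 months, and a log2 change of -0.32 (FDR 0.472). Chrna9, known from hair cells of the inner ear, was the only one of the 2 tested genes that passed. Each mouse of 8, 18 and 22 months had at most 6 counts of it, under 1 CPM. The filter on low counts was thus met only through mice of 24 months and older. A gene kept in this way was selected for high levels in old mice, which limits its FDR values. Chrna9 ran from 0 to 0.535 TPM at 8 months (median 0.133) and from 0 to 3.57 TPM at 24 months (median 0.463). Its level ran from 0.434 to 5.39 TPM at 26 months (median 0.792) and from 0.555 to 19.6 TPM at 28 months (median 1.37). All 9 mice of 28 months and 7 of 9 mice of 26 months stood above the highest 8-month mouse. The log2 change of Chrna9 was 3.52 at 26 months (SE 0.87, FDR 0.00216) and 5.22 at 28 months (SE 0.80, FDR 1.58e-06), and 4.68 between 22 and 28 months (SE 0.76, FDR 1.95e-05). At its highest level Chrna9 lay above the highest Chrne value of that age, 16.8 TPM, whereas its median was below that of Chrnd.

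**Figure D5:**
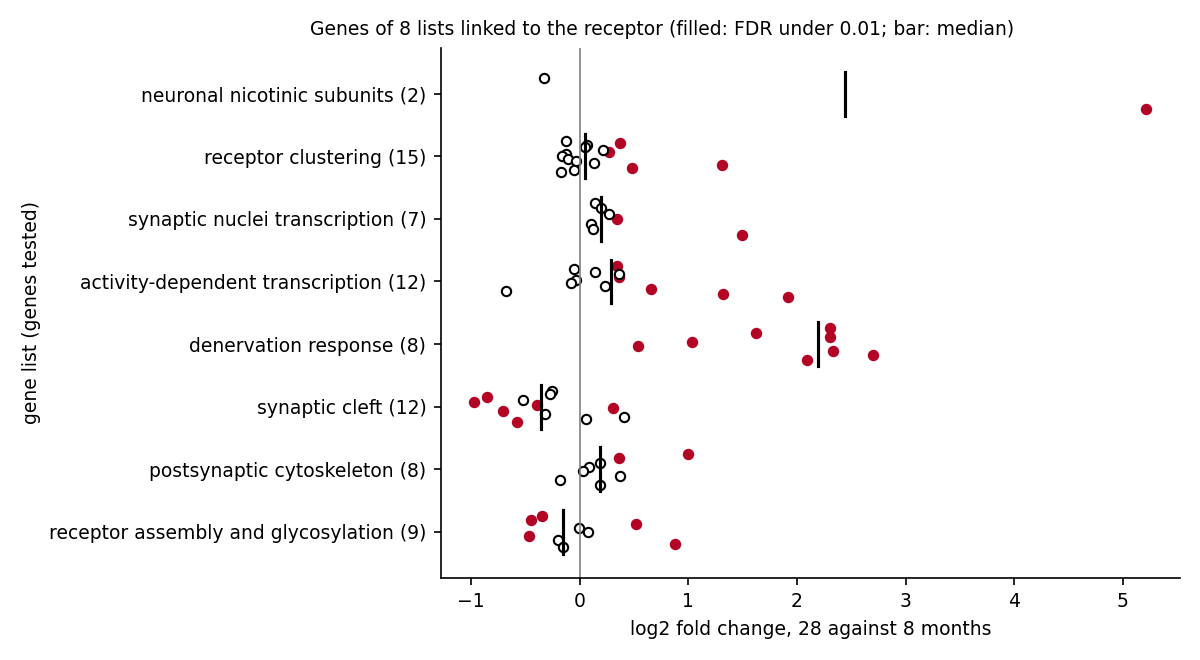
Log2 fold change between 28 and 8 months (x axis) of the tested genes of 8 lists linked to the receptor (y axis, with the number of genes tested). Filled circles passed an FDR of 0.01, open circles did not, and black bars are medians. All 8 genes of the denervation response lie to the right of 0, while the median of the synaptic cleft genes lies at -0.36.

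Genes that work around the receptor were read from fixed lists at 28 against 8 months, beside 2639 higher and 2349 lower among all 12586 genes and a median log2 change of 0.01. Of 15 genes of receptor clustering 4 were higher and 0 lower, with a median of 0.05. Musk, the kinase through which nerve-derived agrin gathers receptors, ran from 11.2 to 40.9 TPM at 8 months (median 28.7) and from 36.7 to 160 TPM at 28 months (median 52.2), with 7 of 9 old mice above all young ones and a log2 change of 1.31 (SE 0.24, FDR 1.49e-05). Pak1 (0.48), Abl2 (0.37) and Cttn (0.27), kinases and an actin regulator, also rose. When each of the 17 mice of these 2 ages was left out in turn, Musk and Cttn passed in all 17 fits, Pak1 in 6 and Abl2 in 8, and the count of the list ran from 2 to 5. Rapsn, the scaffold that binds the receptor from inside the fibre, ran from 28.0 to 37.5 TPM at 8 months and from 25.6 to 36.1 TPM at 28 months, with a log2 change of -0.17 (SE 0.09, FDR 0.116). Agrn, Lrp4 and Dok7 did not pass, with log2 changes of 0.06, -0.04 and -0.17.

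Of 7 tested genes for transcription in synaptic nuclei 2 were higher and 0 lower (median 0.19): Syne1, which encodes the anchor of synaptic nuclei (log2 change 1.49, SE 0.25, FDR 5.86e-06), and Gabpa, the factor that reads the N-box (0.34, SE 0.09, FDR 0.00181, and 0.0110 without 28 months replicate 2). Of 12 genes of activity-dependent transcription 5 were higher and 0 lower (median 0.29). Myog, an E-box factor that is low in active muscle, ran from 2.28 to 7.12 TPM at 8 months (median 4.02) and from 4.53 to 40.9 TPM at 28 months (median 7.33). Only 5 of 9 old mice stood above all young ones, and the log2 change was 1.32 (SE 0.34, FDR 0.00130). Sik1, a kinase gene, rose by 1.92 on the log2 scale, and Myf6, the E-box factor of mature fibres, by 0.66. One old mouse, 28 months replicate 1, had the highest Myog and the highest Sik1 (147 TPM, median 25.1 TPM). Without it the log2 change of Myog was 0.72 (FDR 0.0297) and that of Myf6 0.48 (FDR 0.0228), neither past the threshold, Sik1 was at 1.24 (FDR 0.00112), and 3 of 12 genes were higher. Myod1 was at -0.68 with an FDR of 0.0466.

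All 8 genes of the denervation response list were higher at 28 months, with a median log2 change of 2.20, and all 8 were also higher than at 22 months (median 1.68). Runx1, a factor induced by denervation, ran from 0.840 to 1.65 TPM at 8 months and from 2.62 to 14.5 TPM at 28 months (log2 change 2.33, SE 0.27, FDR 1.74e-08), and the groups did not overlap. The stress gene Gadd45a rose by 2.30 on the log2 scale and Cdkn1a, an inhibitor of the cell cycle, by 2.30. The highest levels of Runx1, Gadd45a and Cdkn1a all came from 28 months replicate 2, the library with the lowest fibre and highest macrophage markers of its age. Without it all 8 genes were still higher than at 8 months (median 1.81) and than at 22 months (median 1.36). Ncam1, an adhesion molecule that spreads over denervated fibres, ran from 2.12 to 5.03 TPM at 8 months and from 3.98 to 6.41 TPM at 28 months, a log2 change of 0.54 (SE 0.14, FDR 0.00118). This list had been written with earlier results of these data known, and its count does not stand as independent evidence of its direction.

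Of 12 genes of the synaptic cleft 5 were lower and 1 higher (median -0.36). The basement membrane genes Col4a5 (-0.97), Col4a3 (-0.85), Hspg2 (-0.71) and Nid2 (-0.57) fell on the log2 scale, as did Colq (-0.39), the tail that anchors acetylcholinesterase, with an FDR of 0.00983. Dag1, the gene of dystroglycan, rose by 0.31. Colq passed in 5 of 17 fits with 1 mouse left out, and Dag1 missed the threshold without 28 months replicate 2 (FDR 0.0120). Of 8 genes of the postsynaptic cytoskeleton 2 were higher and 0 lower (median 0.19), namely Dmd, the dystrophin gene (0.99), and Dtna, which encodes alpha-dystrobrevin (0.37). Of 9 tested genes for receptor assembly and glycosylation 2 were higher, the chaperone genes Ric3 (0.88) and Canx (0.52), and 3 were lower, the sugar transfer genes Gmppb (-0.47), Alg2 (-0.45) and Alg14 (-0.34), of which Gmppb passed in 9 and Alg14 in 8 of the 17 fits.

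Between 22 and 28 months, within one diet regime, 2033 of all 12586 genes were higher and 1452 lower. The counts of several lists differed from those against 8 months. Of the 12 synaptic cleft genes 1 was lower, Col4a5 (log2 change -0.73), and 2 were higher, Dag1 (0.28) and the laminin gene Lama5 (0.63), with a median of -0.30. Col4a3 (-0.39, FDR 0.133), Hspg2 (-0.40, FDR 0.0389) and Nid2 (-0.42, FDR 0.0230) did not pass there. Of the receptor clustering genes 3 of 15 were higher, with Musk at 1.08 and Pak1 at 0.01 (FDR 0.950), and of those for synaptic nuclei 3 of 7, with Syne1 at 1.19. Of the activity-dependent genes 4 of 12 were higher, with Myog at 1.19 (0.59 and an FDR of 0.0863 without 28 months replicate 1), and of the postsynaptic cytoskeleton 1 of 8, Dmd at 0.85. None of these 4 lists held a lower gene. For assembly and glycosylation 2 of 9 were higher, Ric3 (0.47) and Canx (0.29), and 1 was lower, Alg2 (-0.50). Of the 6 macrophage markers 1 was higher, Cd163 (1.08), of the 7 Schwann cell markers 1, Ngfr (1.31), and of the 3 satellite cell markers 0, while 2 of 4 fibroblast markers were lower.

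Markers of the cells and states that the muscle could also hold moved as follows. Of 6 macrophage markers 4 were higher and 0 lower, with a median summed level of 159 TPM at 8 months and 284 TPM at 28 months, most of it Lyz2 (77.5%), and 2 were higher without 28 months replicate 2. Of 7 Schwann cell markers Ngfr rose (log2 change 1.75), S100b fell (-1.07) and 5 did not pass. Of 4 fibroblast markers Col3a1 (-2.28) and Col1a1 (-2.08) fell, and the summed level, mostly Dcn (87.1%), had medians of 858 and 686 TPM. Of 3 tested satellite cell markers Cdh15 rose by 0.57 and 2 did not pass. The summed level of that list, mostly Cdh15 itself (89.1%), had medians of 10.3 and 15.7 TPM. Of 4 endothelial markers 0 passed, and of 6 fibre markers Ttn rose by 1.27. Their part in the changes of the receptor genes was not tested.

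Perinatal myosin, Myh8, which made up 99.0% of the summed level of the regenerating fibre list, had a log2 change of 0.34 (FDR 0.0798), and the median sum was 115 TPM at 8 months and 145 TPM at 28 months. The fusion genes Mymk and Mymx lay under the filter, with means of 0.104 and 0.149 TPM at 8 months and 0.765 and 0.591 TPM at 28 months, and Myh3 was not analysed here. The 5 motor neuron markers in the table were near the lower limit, with a summed median of 0.349 TPM at 8 months and 0.409 TPM at 28 months, mostly Prph, and the median count of Chat, Slc5a7, Snap25 and Nefl was 0.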

How the data were processed

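Stranded mRNA reads were trimmed by the authors with Cutadapt 1.9.1 and mapped by kallisto 0.43.1, in keeping with read strand, to Ensembl's protein-coding mouse transcripts (GRCm38). Reads compatible with more than 1 transcript were split in equal parts. The deposited counts are sums per gene without normalization and are whole numbers in the table, so that very low counts carry the rounding of the authors. The deposited TPM values were made by the authors from counts per transcript, divided by transcript length and scaled to the library. No other columns of per-sample values were present.

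Counts were analysed here with edgeR 4.0.16 and limma 3.58.1 under R 4.3.3. Libraries were scaled by TMM, all 6 ages entered a single quasi-likelihood fit without covariates, a gene needed 1 CPM or more in 8 or more mice, and p-values were adjusted by Benjamini-Hochberg over all genes tested, with calls at an FDR of 0.01. Of 23880 genes 12586 passed the filter. Chrng did not and was taken from the same fit over 22116 genes with a count in any mouse. Levels are TPM, correlations used log2(TPM + 1), and permutation tests are two-sided at 0.05. Alternatives were DESeq2 1.42.0, edgeR's likelihood ratio test, limma on log2(TPM + 1) and log2(TPM + 0.1), upper-quartile factors, no filter, the 2 ages alone, a block for the replicate number, and omission of each mouse in turn, which for the listed genes was added after the data had been seen. Python 3.11.15 with scipy 1.17.1 served for levels, correlations and permutations. Procedures were tested on simulated data. Intervals on summed counts are 95% intervals and cover counting error only. The spread between mice sets the precision of all other values, and no library was left out.

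Groups were taken from the labels, each library being 1 mouse. The subunits and gene lists were chosen with earlier results of these data known. Genes named are the 5 subunits, up to 4 members of each list with the largest change past the threshold between 28 and 8 months, Musk, Rapsn, Myog and Ncam1 whatever their values, and the 3 genes most like each subunit. Camk2b, Kcnn3 and other list members enter the counts alone, some list members and the summed Schwann cell level are not reported here, and members named beyond this rule (Agrn, Lrp4, Dok7, Myod1, Colq, Dag1, Alg14, Lama5, the motor neuron and regeneration genes) were named after their values were seen. Promoter windows came from RefSeq, with an entry for 4 of the 5 genes, and motifs were exact letter matches. The numbers of replicates were not taken to pair mice. Deviations of same-numbered mice of different ages had a mean correlation of 0.04, against -0.005 for different-numbered mice. Of the same-numbered pairs 52 of 121 lay above 0.1, and this share was not counted for the different-numbered pairs.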

Additional observations from a re-analysis of the deposited data

Results flagged for a closer look

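In 6 of 30 groups of one subunit and one age, 1 mouse stood farther from the rest than expected for groups of this size. Chance gives such a distance in about 1 of 20 groups if the values are normally distributed. How often it arises for counts as low as those of Chrng was not tested. Chrna1 was at 21.8 TPM in 24 months replicate 1, where the next mouse had 15.2 TPM, and that mouse also had the highest Chrnb1 (67.3 TPM) and Chrnd (2.81 TPM) of its age, while its Chrne level was the third lowest at 15.7 TPM. Chrne was at 21.1 TPM in 18 months replicate 1 and at 4.88 TPM in 28 months replicate 2, where the nearest mice had 17.3 and 11.4 TPM. Chrng was at 2.62 TPM in 18 months replicate 5, at 1.44 TPM in 24 months replicate 3 and at 1.66 TPM in 28 months replicate 9, where the next mice had 0.479, 0.626 and 0.593 TPM. The library of 18 months replicate 5 had the lowest total count of its age (13758961) and the second highest summed macrophage markers (280 TPM, median of the age 189 TPM), and its Chrnd level was 2.57 TPM. The library of 28 months replicate 9 had the highest summed regenerating fibre markers of its age (171 TPM, median 145 TPM) and also the highest summed fibre markers (152502 TPM, median 131928 TPM). The part of these values in the distances was not tested.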

How the results depend on the processing

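All calls of Chrna1 and Chrnb1 at 28 against 8 and at 28 against 22 months held under each alternative run and with each mouse left out. Of 389 fold changes under other tools, scalings, filters or the replicate block, 379 kept their direction and side of the threshold, and of 830 with 1 mouse left out, 803 did. These totals pool all comparisons, most of which had no call and an FDR far above the threshold. They therefore say little about how firm the calls are. In the fit of the 2 ages alone, Chrna1 passed at 22 months (log2 change 0.50, FDR 0.00746) and Chrng at 26 months (2.77, FDR 0.00812), while Chrnd at 28 months did not (0.62, FDR 0.0114). Chrng at 28 months did not pass with limma on log2(TPM + 1) (0.49, FDR 0.0354). By the exact permutation test of TPM, at 0.05, Chrng passed at 18, 22, 24 and 26 months with differences of 0.438, 0.288, 0.344 and 0.249 TPM. In the test over all ages Chrng passed without 18 months replicate 5 (FDR 0.00458). With limma on log2(TPM + 1) and log2(TPM + 0.1) the sign of small steps of Chrnd turned, to -0.0084 and -0.028 from 22 to 24 months and to 0.0075 and 0.037 from 24 to 26 months. On log2(TPM + 0.1) Chrng turned to 0.18 from 18 to 22 months and to -0.11 from 22 to 24 months. DESeq2 gave no adjusted p for Chrng from 24 to 26 months. The correlation of Chrnd with Chrne passed without the 2 farthest mice (r = 0.390), but not in the same step on log2(TPM + 0.1) (r = 0.328, adjusted p 0.0803). On log2 of TMM-scaled CPM it passed (r = 0.369, adjusted p 0.0461). The cause of these shifts was not tested.

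With each mouse left out, the log2 change of Chrnd at 28 against 8 months ran from 0.52 to 0.69, and it missed the threshold without 28 months replicate 3 (FDR 0.0101). Several changes turned in sign. From 24 to 26 months Chrna1 ran from -0.068 to 0.13, Chrnd from -0.095 to 0.079 and Chrne from -0.075 to 0.045. From 18 to 22 months Chrnd ran from -0.0087 to 0.12. Chrng ran from -0.92 to 0.072 from 24 to 26 months, where it was -0.64 with all mice. From 18 to 22 months it ran from -0.86 to 0.77, with -0.55 for all mice. From 22 to 24 months Chrng ran from -0.48 to 0.56, and at 26 against 8 months Chrne ran from -0.014 to 0.12. The turns of Chrng rested on 18 months replicate 5 (22 against 18 months) or on 24 months replicate 3 (24 against 22 and 26 against 24 months).

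With the replicate block the log2 change at 28 months was 1.24 for Chrna1, 1.02 for Chrnb1, 0.56 for Chrnd, -0.28 for Chrne and 3.66 for Chrng, and the block changed no call. With upper-quartile factors the share of higher among called genes between 28 and 22 months was 43.4% in place of 58.3%, and between 28 and 8 months 44.9% in place of 52.9%. Chrng and Chrnd had at most 36 and 91 counts per mouse, and the part of depth in their results was not tested.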
